A study of Mus musculus with 6 samples.

Results

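The genes described here encode the subunits and activators of the proteasome in whole testes of 3 inbred mouse strains. They were found by name: probe sets whose platform annotation gave 1 gene symbol reading Psma, Psmb, Psmc, Psmd or Psme followed only by a number. This gave 42 genes, of 18193 genes with a named probe set, on 88 probe sets, and each gene was represented by its probe set of the highest mean over all arrays. The testis subunit Psma8 and the immune subunits Psmb8, Psmb9 and Psmb10 were set apart as 4 genes with restricted expression. The other 38 are called general proteasome genes below, although they include the thymus subunit Psmb11, which gave too little signal to be tested. Psme2 shared its probe set with another gene in the annotation and was not analysed here.

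Total RNA of testes from C57BL/6, AKR/N and MRL/MpJ mice aged 8 weeks was hybridised to 6 expression arrays, with 2 mice and 2 arrays per strain. The MRL/MpJ mice carried the label +/+, and the labels gave no other allele, transgene or treatment for any group. The study compared testis gene expression between the strains. In a whole organ, a change in the number of cells of a type and a change in RNA per cell cannot be told apart.

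The 26S proteasome degrades proteins tagged with ubiquitin. Its barrel-shaped 20S core has outer rings of alpha subunits, which form the gate, and inner rings of beta subunits, of which Psmb5, Psmb6 and Psmb7 carry the active sites. The 19S cap has a base with ATPases (Psmc genes) that unfold the substrate and a lid of Psmd subunits, whose Psmd14 removes the ubiquitin chain. Other Psmd genes encode subunits of the base or chaperones that assemble it. Cells exposed to interferon exchange the active beta subunits for Psmb8, Psmb9 and Psmb10. Male germ cells from meiosis onward make Psma8, a relative of Psma7 that takes its place in the core and is needed for meiosis and male fertility in mice, and they rely on the activator Psme4 during spermatid development.

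Levels are probe set intensities in scaled units, given for replicate 1 and then replicate 2 of a strain, or as means ± SD with n = 2 mice. Differences are of log2(intensity + 16), from limma fitted to all 29692 probe sets that passed a filter on dim signal, and a call means a p under 0.05 after Benjamini-Hochberg adjustment over all of them. The filter asked for at least 2 of 6 arrays above the 40th percentile of their array, which lay between 17.8 and 20.8 units. Of the 42 genes, 39 passed it, and Psmb8, Psmb9 and Psmb11 did not. All 16 spermatocyte, 16 round spermatid and 14 elongating spermatid markers passed too, while 9 of 14 markers of T cells and other leukocytes with a probe set did not.

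Most of the proteasome genes were within a narrow range in the 3 strains on the probe set chosen for each. The test called 3 of 39 genes between MRL/MpJ and C57BL/6, namely Psma8 and Psmb5 higher and Psme3 lower in MRL/MpJ, which is 7.69% of the genes against 10.0% of all probe sets tested (5.07% higher and 4.95% lower). It called 3 of 39 between AKR/N and C57BL/6, with Psma7 and Psmb5 higher and Psmd11 lower in AKR/N, against 9.97% of all probe sets (5.09% higher and 4.88% lower). Between MRL/MpJ and AKR/N it called 3 of 39, with Psma8 higher and Psmc4 and Psmd10 lower in MRL/MpJ, against 6.91% (3.22% higher and 3.69% lower). In each comparison the share of calls was near that of all probe sets tested. It was below the 18.0%, 17.3% and 14.2% of probe sets at least as bright as Psme1, the dimmest general gene tested. A difference from either background was not tested. All 3 comparisons draw on shared arrays, so that Psmb5 and Psma8 each appear in a pair of comparisons with a strain in common.

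The medians of the 37 general genes tested were close to those of all probe sets. They stood at 0.04 for MRL/MpJ against C57BL/6, 0.01 for AKR/N against C57BL/6 and 0.02 for MRL/MpJ against AKR/N, where all probe sets had medians of 0.01, -0.003 and 0.02. The median absolute difference of these genes was 0.13, 0.086 and 0.08, and that of all probe sets 0.195, 0.19 and 0.17. The dimmest of these genes, Psme1, had a mean of 148 units, and no such median was taken over probe sets of like brightness. On the probe set chosen for each gene, the intervals limit how large a difference could be for most of these genes. They do not cover other probe sets, of which 1 of Psmd6 differed by -3.66 in MRL/MpJ against C57BL/6 and by -3.80 against AKR/N. The unadjusted 95% confidence interval lay within a 1.5-fold change either way for 36, 35 and 36 of the 37 genes, and the exceptions were Psmd3 in the first comparison, Psma7 and Psmd10 in the second and Psmd10 in the third. Such an interval was held by 47.3%, 46.9% and 50.5% of all probe sets tested. Among all probe sets at least as bright as Psme1, the dimmest general gene tested, 82.3%, 81.5% and 84.5% had such an interval, and 18.0%, 17.3% and 14.2% were called.

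**Figure D1:**
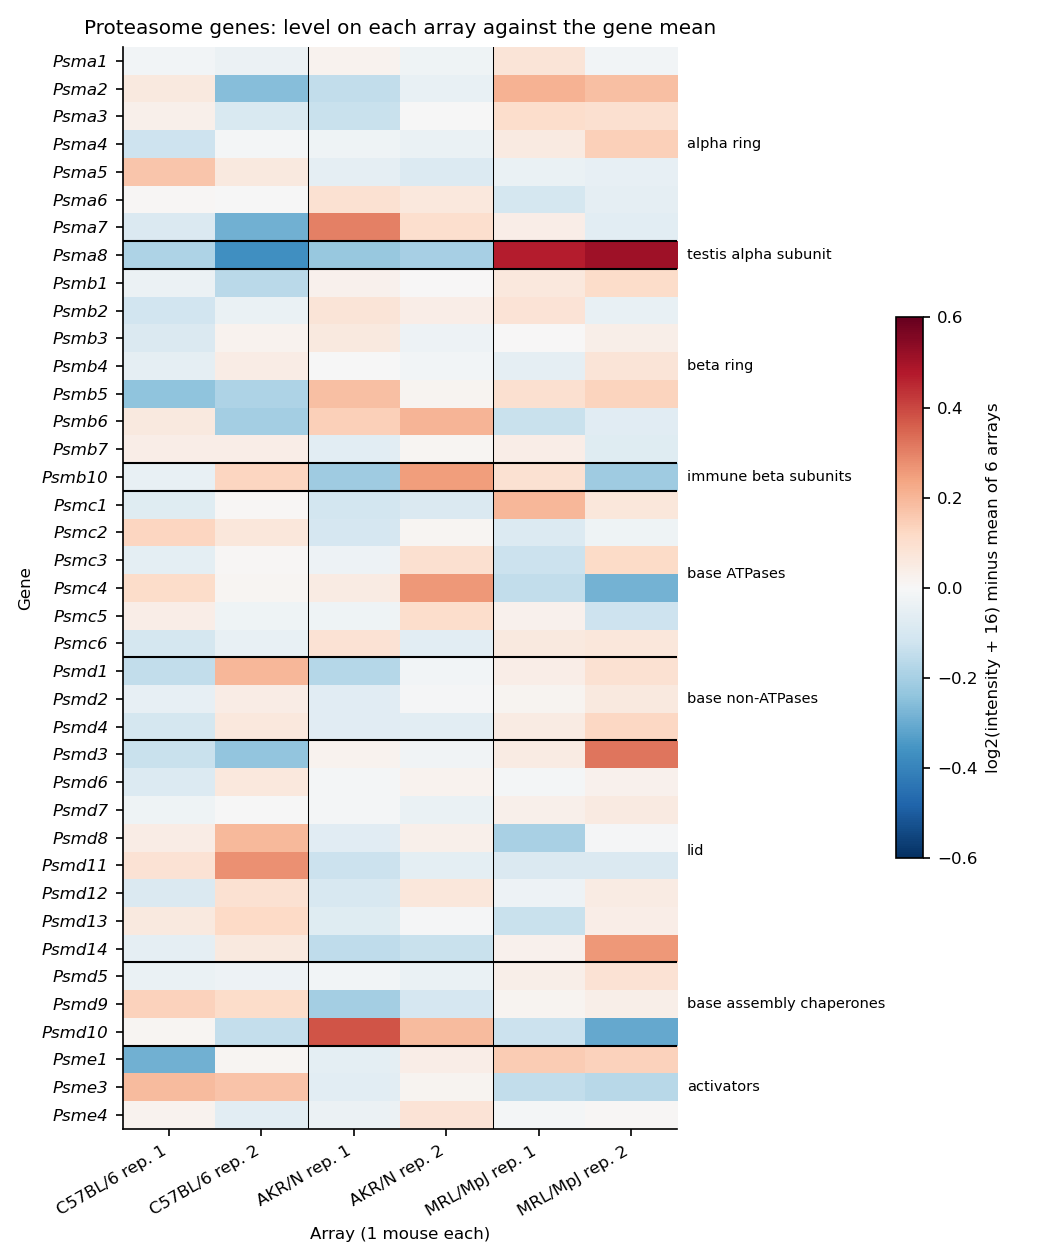
Levels of the 39 tested proteasome genes (rows, grouped by role) on each of the 6 arrays (columns, 1 mouse each), as log2(intensity + 16) minus the gene's mean over the arrays. Both MRL/MpJ arrays are deepest red at Psma8, and most other fields are pale.

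**Figure D2:**
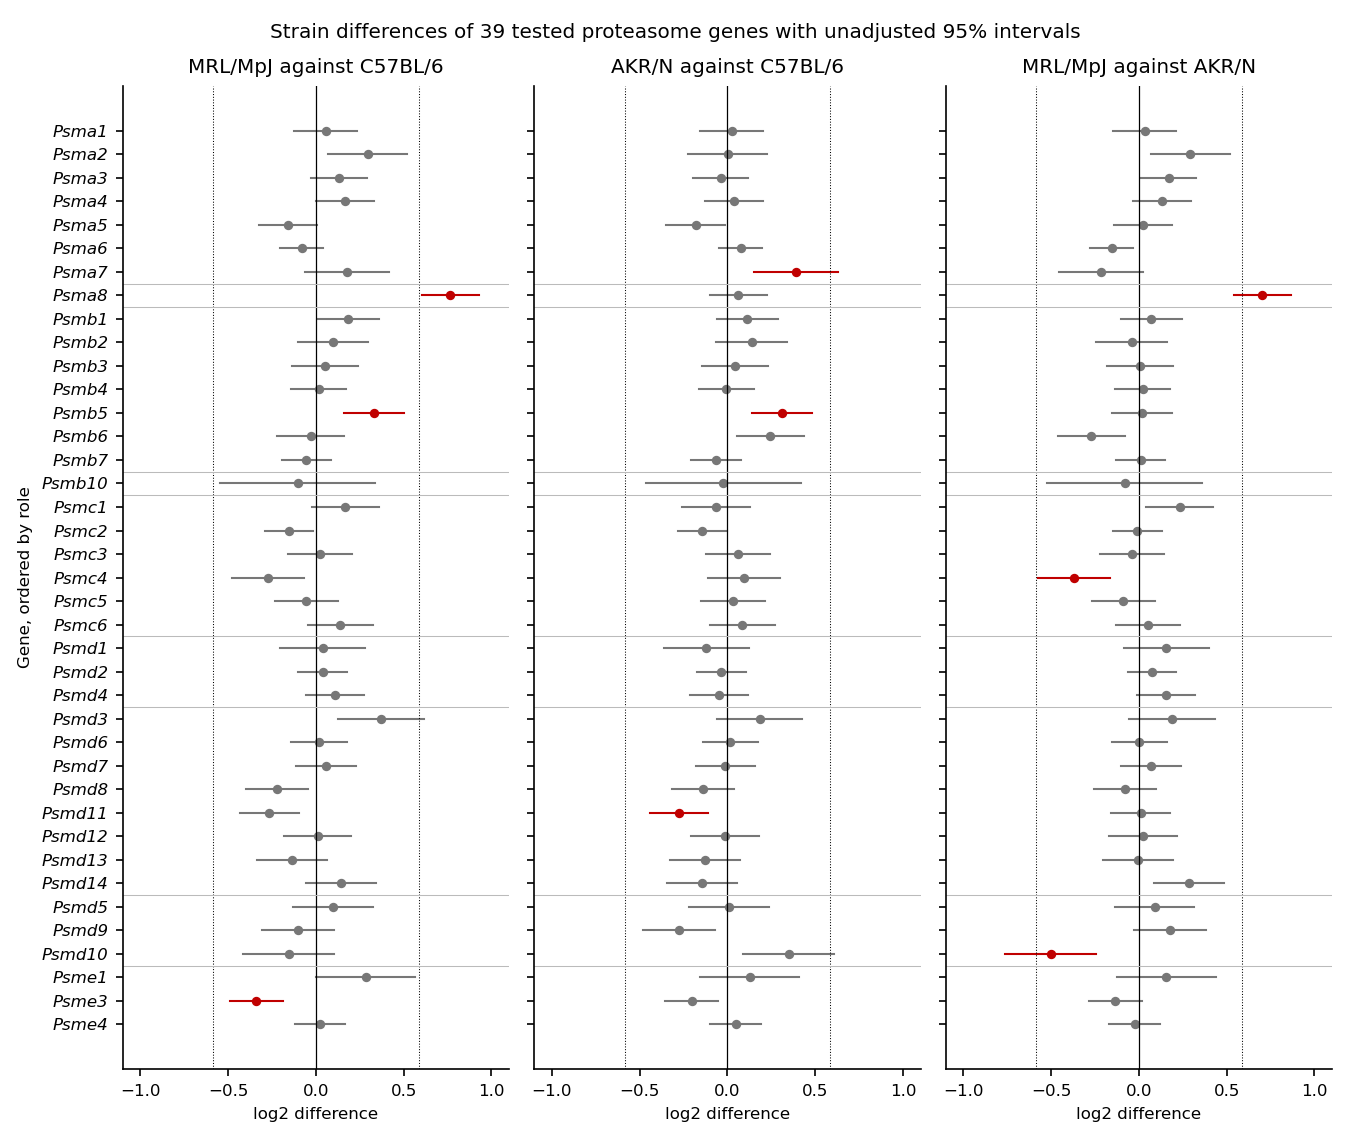
Strain differences of the 39 tested genes on the log2 scale (points) with unadjusted 95% confidence intervals (lines), for the 3 comparisons; red marks calls at adjusted p under 0.05 and the dotted lines a 1.5-fold change. Psma8 is the gene farthest from 0 in both comparisons with MRL/MpJ, at 0.77 and 0.70.

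Psma8, the alpha subunit of germ cells, had the largest difference among the tested genes in both comparisons with MRL/MpJ. Its intensity was 1391 and 1222 units in C57BL/6, 1350.1 and 1375 in AKR/N, and 2199 and 2257 in MRL/MpJ. Both MRL/MpJ mice were well above all 4 others, and C57BL/6 and AKR/N overlapped. The mean of 2228 ± 41.3 units in MRL/MpJ was 1.70 times that of C57BL/6 on the log2(intensity + 16) scale (log2 difference 0.77, SE 0.0736, 95% interval 0.60 to 0.93, adjusted p = 9.26e-05). Against AKR/N it was 1.63 times as high (0.70, 95% interval 0.54 to 0.87, adjusted p = 0.000261, and 0.0573 without the variance trend). AKR/N and C57BL/6 differed by 0.06 (95% interval -0.10 to 0.23, adjusted p = 0.671). Psma8 has 1 probe set on the array, so no other probe set could be set beside it.

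Markers of the stages around meiosis also differed between these strains. Of the 16 spermatocyte markers, 3 were higher and 5 lower in MRL/MpJ than in C57BL/6 (50% called, median -0.10). In AKR/N against C57BL/6, where Psma8 was not called, 1 was higher and 7 lower (50% called, median -0.27). In MRL/MpJ against AKR/N 9 were higher and none lower (56.2% called, median 0.33). Among all probe sets these shares were 10.0%, 9.97% and 6.91%, and among those at least as bright as Psme1 18.0%, 17.3% and 14.2%. Their summed intensity was 26600.2 and 27450.5 units in C57BL/6, 23154 and 22944 in AKR/N and 24467 and 26039 in MRL/MpJ. Their mean log2(intensity + 16) was 9.78 and 9.83 in C57BL/6, 9.56 and 9.44 in AKR/N and 9.91 and 9.90 in MRL/MpJ. MRL/MpJ was therefore below C57BL/6 by the sum, in which the brightest markers weigh most. It was above C57BL/6 by the mean of log2 values, which includes the difference of 2.40 of Mybl1, while the median difference was -0.10. AKR/N was lowest by both the sum and the mean. None of these markers was at 0, and the lowest intensities among them belonged to Mybl1. The Mybl1 transcript, for a regulator of transcription in meiosis, had the largest difference of the list, at 56.1 and 85.7 units in C57BL/6, 53.9 and 55.8 in AKR/N and 461 and 413 in MRL/MpJ (2.40 and 2.67, adjusted p = 7.44e-06 and 4.83e-06). Its other probe set differed by 1.56 between MRL/MpJ and C57BL/6 (adjusted p = 0.00049). Of 16 round spermatid markers, 7 were lower in MRL/MpJ than in C57BL/6 and 8 lower than in AKR/N, with none higher. In AKR/N against C57BL/6 1 was lower and none higher. The part of cell composition in the Psma8 difference was not tested.

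The 7 general alpha subunits, Psma1 to Psma7, differed from C57BL/6 by -0.16 to 0.29 in MRL/MpJ and by -0.18 to 0.39 in AKR/N. Psma7, the subunit that Psma8 replaces, stood at 285.5 and 246 units in C57BL/6, 379 and 328 in AKR/N, and 313 and 290.4 in MRL/MpJ. The AKR/N mice were above both others without overlap. The difference from C57BL/6 was 0.39 (SE 0.108, adjusted p = 0.0457), and was called in 6 of 17 alternative settings, with adjusted p up to 0.285. The other tested probe set of Psma7, at 265 to 304 units over all arrays, differed by 0.01 between AKR/N and C57BL/6 (adjusted p = 0.96). In MRL/MpJ, where Psma8 was high, Psma7 differed from C57BL/6 by 0.18 (95% interval -0.06 to 0.41, adjusted p = 0.363). Psma2 was highest in MRL/MpJ, at 788 and 772 units against 708 and 566 in C57BL/6, and did not pass the test (0.29, adjusted p = 0.0994). Psma6, whose probe set has the ending x that marks probes shared with other sequences, was at 4105 and 4069 units in C57BL/6 and 3795 and 3933 in MRL/MpJ (-0.08, adjusted p = 0.413).

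**Figure D3:**
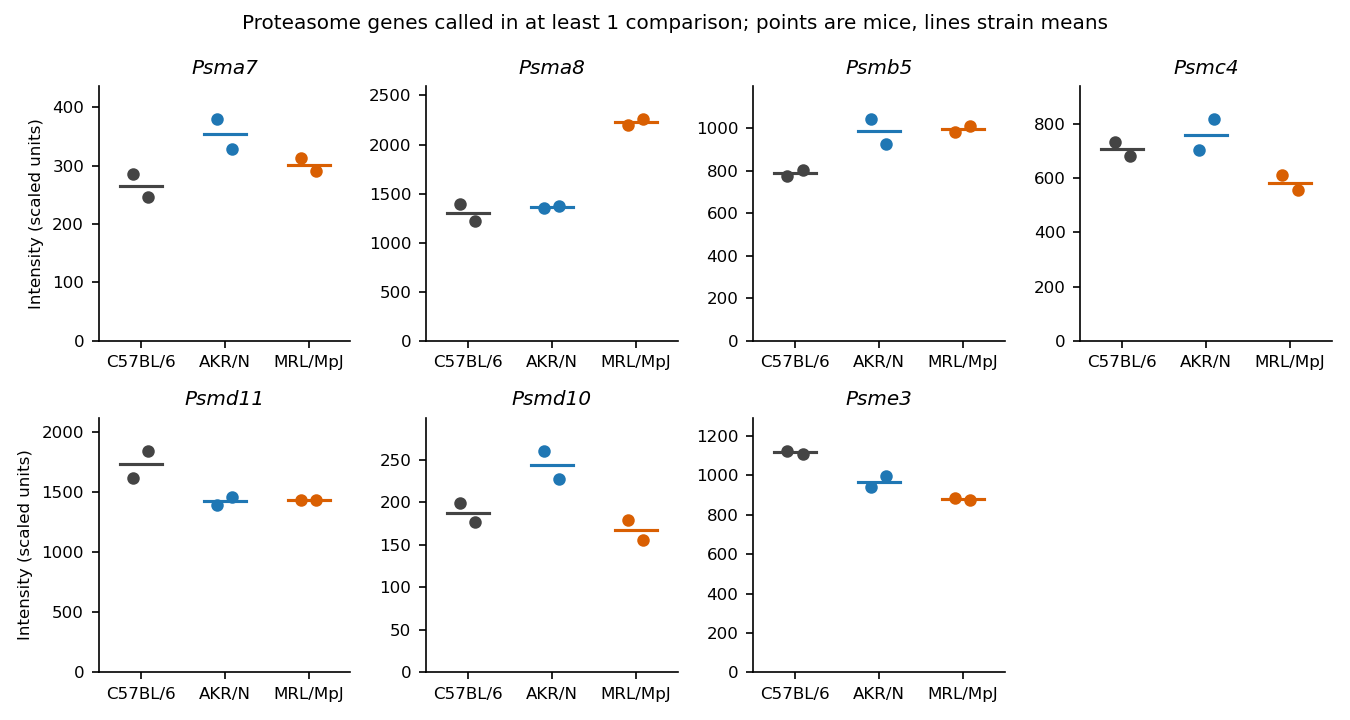
Intensity in scaled units of the 7 proteasome genes called in at least 1 comparison, in the 3 strains; each point is 1 mouse and each line a strain mean, and every axis starts at 0. The Psma8 points of MRL/MpJ (2199 and 2257 units) stand clear of the other 4, while the other panels show smaller steps.

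Psmb5, the beta subunit with chymotrypsin-like activity, was the only gene of its ring that was called. It was lowest in C57BL/6, at 772 and 803 units, against 1041 and 926 in AKR/N and 980 and 1007 in MRL/MpJ. No C57BL/6 mouse reached the range of the other strains, which overlapped with each other. The difference from C57BL/6 was 0.33 in MRL/MpJ (SE 0.0773, adjusted p = 0.0222) and 0.31 in AKR/N (adjusted p = 0.0283), and these share the C57BL/6 arrays. MRL/MpJ and AKR/N differed by 0.02 (95% interval -0.15 to 0.19). Most of these calls were lost when an array of the strains compared was left out. For MRL/MpJ the adjusted p was 0.0622 to 0.12 when either array of C57BL/6 or of MRL/MpJ was left out. For AKR/N it was 0.101 and 0.0824 when C57BL/6 replicate 1 or 2 was left out. It was 0.225 when AKR/N replicate 1 was left out, where the difference was 0.23, and 0.0435 when AKR/N replicate 2 was. Psmb5 has 1 probe set. Markers of Leydig cells, which make testosterone, also had their lowest sum in C57BL/6. Of 7 tested, 4 were called higher in MRL/MpJ (median 0.60) and 4 in AKR/N (median 0.65) than in C57BL/6, with none called lower and none at 0. The lowest differences of the list were -0.07 and -0.04. This was 57.1% called in each, against 10.0% and 9.97% of all probe sets tested. Among probe sets at least as bright as Psme1 the shares were 18.0% and 17.3%. The summed intensity of the Leydig cell markers was 4208 and 3998 units in C57BL/6, 6338 and 6738 in AKR/N and 6403 and 6517 in MRL/MpJ. Of 12 tested Sertoli cell markers, 4 were called higher in AKR/N than in C57BL/6 (33.3%) and 1 in MRL/MpJ (8.33%), with none called lower. The part of these cells in the Psmb5 difference was not tested.

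The active subunits Psmb6 and Psmb7 were not called. Psmb6, with caspase-like activity, stood at 1481 and 1233 units in C57BL/6, 1568 and 1638 in AKR/N and 1296 and 1353 in MRL/MpJ, with a difference of -0.27 for MRL/MpJ against AKR/N (adjusted p = 0.0937). Psmb7, with trypsin-like activity, lay between 2389 and 2582 units on all 6 arrays. The remaining subunits Psmb1 to Psmb4 differed by at most 0.18 in any comparison.

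The promoters of Psmb5 and Psme3 are shown because both genes were called between MRL/MpJ and C57BL/6, in opposite directions. RefSeq's windows for GRCm38.p6, a C57BL/6J assembly, were searched on both strands for TGACNNNGC, the core of the antioxidant response element through which the factor Nfe2l1 is known to drive proteasome genes in mammals, and for CCAAT. A window for 35 of the 42 genes was in the table, each with 250 bases before the start and 50 after it. The first motif was found for 6 of 35 genes (Psmb5, Psmb6, Psmc6, Psmd9, Psmd12 and Psme4), in 16.2% of their windows and 12.4% of all 32851 windows, and CCAAT for 14 of 35, in 37.8% and 37.4%. The lines below give the 250 bases before each start, read 5′ to 3′ on the strand of the gene. Capitals mark the match, to the first motif in Psmb5 (its first base 47 bases from the start) and to CCAAT on the opposite strand in Psme3 (its first base 14 bases from the start).
Psmb5, chr14:54617996-54618245, minus strand: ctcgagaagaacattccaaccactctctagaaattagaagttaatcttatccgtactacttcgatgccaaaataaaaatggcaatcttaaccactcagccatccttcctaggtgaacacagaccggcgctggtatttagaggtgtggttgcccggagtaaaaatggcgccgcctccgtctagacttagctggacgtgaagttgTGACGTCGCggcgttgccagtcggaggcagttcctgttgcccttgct
Psme3, chr11:101315963-101316212, plus strand: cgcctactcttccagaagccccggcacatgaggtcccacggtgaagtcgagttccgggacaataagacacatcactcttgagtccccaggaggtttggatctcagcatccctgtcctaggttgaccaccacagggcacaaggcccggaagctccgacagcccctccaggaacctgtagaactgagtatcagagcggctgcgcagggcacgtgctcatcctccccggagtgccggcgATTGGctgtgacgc

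The immune subunits gave little signal. Psmb8 was at 16.02 and 8.24 units in C57BL/6, 15.1 and 6.80 in AKR/N and 16.1 and 26.3 in MRL/MpJ, with 1 of 6 arrays above the 40th percentile of its array. Psmb9 was at 13.97 and 14.1, 17.7 and 16.8, and 15.1 and 17.8 units in the same order, with 0 of 6 arrays above it. Both missed the filter, and in a fit without it their differences between strains were -0.07 to 0.47 for Psmb8 and -0.03 to 0.15 for Psmb9, with adjusted p of 0.5 or more. Psmb10 passed the filter, at 52.0 and 60.8 units in C57BL/6, 44.5 and 67.4 in AKR/N and 58.8 and 44.4 in MRL/MpJ, and the strains overlapped throughout. Its differences were -0.10 to -0.02, with intervals that reached from -0.55 to 0.42. The thymus subunit Psmb11, between 1.33 and 11.7 units, was below the 40th percentile on all 6 arrays.

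**Figure D4:**
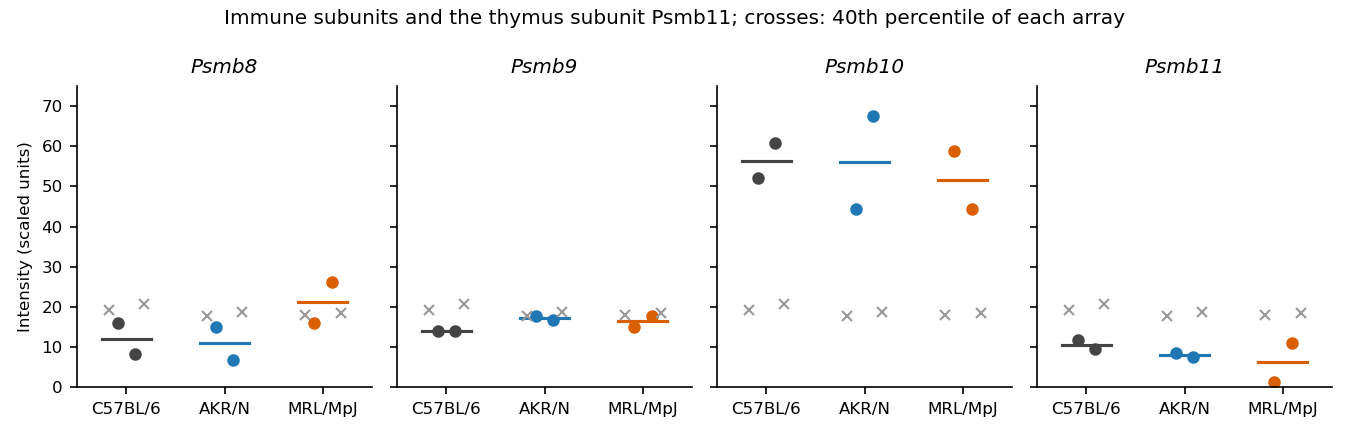
Intensity in scaled units of Psmb8, Psmb9, Psmb10 and Psmb11 in the 3 strains; points are mice, lines strain means and crosses the 40th percentile of each array. Psmb8 lies above the crosses on 1 of 6 arrays, Psmb9 and Psmb11 on 0 of 6, and Psmb10 on all 6, with overlapping strains.

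Genes that work beside the immune subunits in antigen processing differed in other ways. Of 10 tested partners, 1 was higher and 2 lower in both MRL/MpJ and AKR/N than in C57BL/6. This was 30% called in each, against 10.0% and 9.97% of all probe sets tested. The chaperone Pdia3 gave the higher signal (0.44 and 0.45), and the class I genes H2-K1 and H2-D1 the lower. Between MRL/MpJ and AKR/N 0 of 10 were called by limma (3 at an unadjusted p under 0.05), against 6.91% of all probe sets. H2-K1 stood at 498 and 507 units in C57BL/6, 57.5 and 74.4 in AKR/N and 65.9 and 77.5 in MRL/MpJ, on a probe set whose ending x marks probes shared with other sequences. Whether the class I transcripts or the sequences under their probes differ between the strains was not tested. Of 11 tested genes of the interferon response 0 were called by limma in any comparison, with 0 of 11 at an unadjusted p under 0.05 in each, and medians of -0.06, -0.06 and 0.02. Over all probe sets 10.0%, 9.97% and 6.91% were called, and whether 0 of 11 differs from these shares was not tested. Of 18 interferon response genes with a probe set, only these 11 passed the filter on dim signal. Their summed intensity was 316 to 449 units over the arrays, so they were dim as a group. The log2 scale used understates changes of dim genes, so the lack of calls does not show that these genes were alike in the strains. In the RefSeq gene order Psmb9, Tap1, Psmb8 and Tap2, the last of these with Tap1 forming the peptide transporter, follow each other. Tap1 missed the filter as Psmb8 and Psmb9 did. Tap2 passed it, at 6.06 and 4.98 units in C57BL/6, 21.2 and 30.9 in AKR/N and 13.7 and 19.7 in MRL/MpJ. It did so only through arrays of AKR/N and MRL/MpJ, as the 40th percentiles of the C57BL/6 arrays were 19.1 and 20.8 units. Tap2 was not called in any comparison.

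Among the 6 ATPases of the base, only Psmc4 was called, and in 1 comparison. It stood at 734 and 684 units in C57BL/6, 703 and 817 in AKR/N and 612 and 555 in MRL/MpJ. Both MRL/MpJ mice were the lowest, and the other strains overlapped. The difference was -0.37 against AKR/N (SE 0.0925, adjusted p = 0.0389) and -0.27 against C57BL/6 (adjusted p = 0.0923). The other probe set of Psmc4 differed by -0.26 (adjusted p = 0.109) and -0.20 (adjusted p = 0.187). The call against AKR/N was lost in 7 of 17 alternative settings, which included median centring (adjusted p = 0.0523) and leaving out AKR/N replicate 2 (-0.26, adjusted p = 0.293). Psmc1, Psmc2, Psmc3, Psmc5 and Psmc6 differed by -0.15 to 0.23. The base scaffolds Psmd1 and Psmd2 and the ubiquitin receptor Psmd4 differed by -0.12 to 0.16.

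In the lid, the 2 probe sets of Psmd6 differed in MRL/MpJ. The brighter one, chosen by the rule, was at 1213 and 1343 units in C57BL/6, 1277 and 1305 in AKR/N and 1274 and 1311 in MRL/MpJ, and differed by 0.02, 0.02 and 0.002 in the 3 comparisons. The other, which shares its source accession, stood at 917 and 896 units in C57BL/6 and 1019.8 and 985 in AKR/N, but at 68.9 and 47.0 in MRL/MpJ. Its difference was -3.66 against C57BL/6 (SE 0.124, adjusted p = 4.46e-08) and -3.80 against AKR/N (adjusted p = 8.42e-08), and 0.14 between AKR/N and C57BL/6 (adjusted p = 0.546). The range between probe sets of 1 gene was 3.67 here in MRL/MpJ against C57BL/6, a size reached by 3 of 6246 genes with several tested probe sets, Psmd6 included. The median range was 0.32 for those genes and 0.25 for the 19 proteasome genes among them. A brightest probe set within 0.1 of 0 with another called at 2-fold or more was seen for 33 of the 6246 genes (0.528%). Taken as the mean of its probe sets, Psmd6 would be called lower in MRL/MpJ (-1.82 and -1.90, adjusted p = 4.43e-07 and 4.86e-07). Whether the transcript, its form or the sequence under the probes differs in MRL/MpJ was not tested.

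Psmd11, another subunit of the lid, was called lower in AKR/N than in C57BL/6 on its brightest probe set and higher on another. The brightest was at 1617 and 1846 units in C57BL/6, 1390.0 and 1462 in AKR/N and 1436 and 1435 in MRL/MpJ. Its difference was -0.27 in AKR/N (SE 0.0753, adjusted p = 0.0443) and -0.26 in MRL/MpJ (adjusted p = 0.0507). The call in AKR/N was kept in 6 of 17 alternative settings and in 1 of 6 fits that left out an array, and without C57BL/6 replicate 2 the difference was -0.18 (adjusted p = 0.252). A dimmer probe set was at 126 and 128 units in C57BL/6, 176 and 199 in AKR/N and 163 and 160.1 in MRL/MpJ, and rose by 0.51 in AKR/N (adjusted p = 0.0152). Of its 8 probe sets 6 were tested, and those not yet given differed by -0.41 to 0.17 between AKR/N and C57BL/6. On the brightest probe set without an s or x in its ending the difference was 0.17 (adjusted p = 0.265), and as the mean of all probe sets -0.06, so the direction for this gene depends on the probe set.

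**Figure D5:**
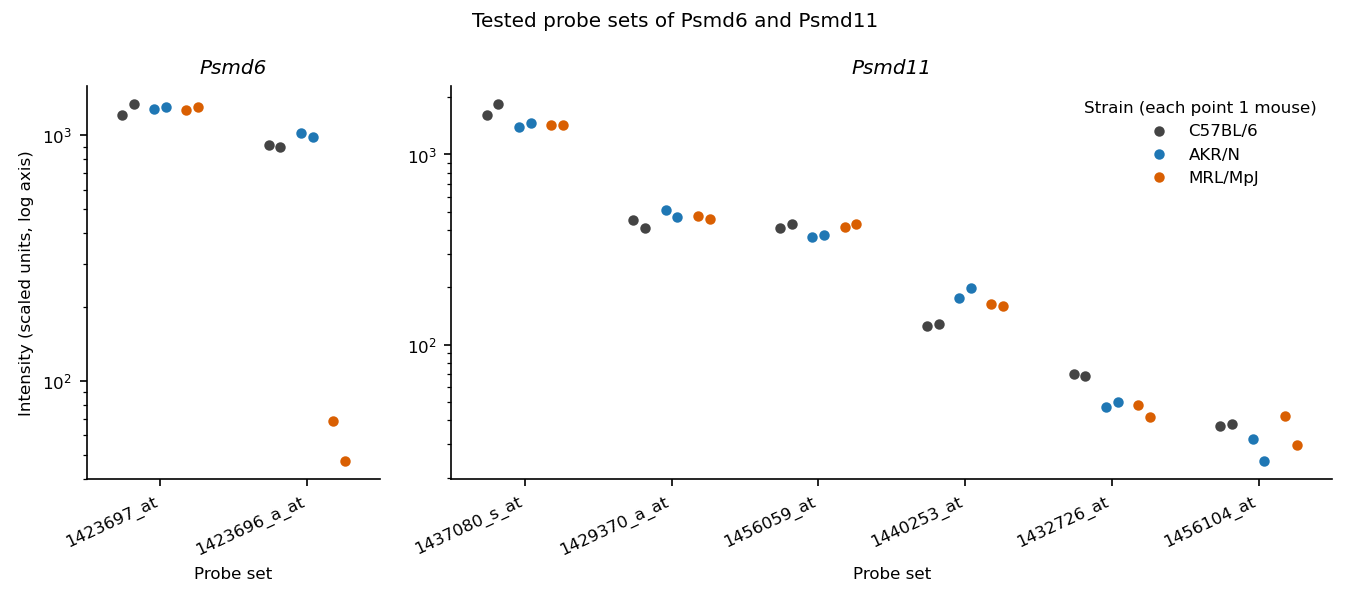
Intensity in scaled units, on a log axis, of the tested probe sets of Psmd6 and Psmd11 (names on the horizontal axis), with 1 point per mouse coloured by strain. On the second Psmd6 probe set the MRL/MpJ points, at 68.9 and 47.0 units, lie far below the other 4, while on the first all 6 lie between 1213 and 1343.

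The other lid subunits were not called. Psmd14, the deubiquitinating subunit, was at 691 and 749 units in C57BL/6, 645 and 653 in AKR/N and 731 and 865 in MRL/MpJ, with a difference of 0.29 for MRL/MpJ against AKR/N (adjusted p = 0.0937). Psmd3 had the widest positive difference of the lid, at 233 and 215 units in C57BL/6 and 266 and 325 in MRL/MpJ (0.37, adjusted p = 0.0604). Psmd7, a partner of Psmd14 in the lid, varied least, between 478 and 511 units on all arrays. Psmd8, Psmd12 and Psmd13 differed by -0.22 to 0.02.

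Of the 3 chaperones that assemble the base, Psmd10 was called. Psmd10, also known as gankyrin, stood at 199 and 177 units in C57BL/6, 261 and 227 in AKR/N and 179 and 156 in MRL/MpJ. AKR/N was highest without overlap, and the other strains overlapped. The difference for MRL/MpJ against AKR/N was -0.50 (SE 0.117, 95% interval -0.76 to -0.24, adjusted p = 0.0287), and the call was kept in 11 of 17 alternative settings and lost with any of these strains' 4 arrays left out. Between AKR/N and C57BL/6 it differed by 0.35 (adjusted p = 0.0948). Psmd9 was at 290 and 284 units in C57BL/6 and 225 and 243 in AKR/N (-0.28, adjusted p = 0.0916), and Psmd5 lay between 165.5 and 182 units on all arrays.

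Among the activators, Psme3 was lower in MRL/MpJ and Psme4 varied little. Psme3, which forms the nuclear PA28gamma ring, was at 1124 and 1108 units in C57BL/6, 941 and 994 in AKR/N and 884 and 874 in MRL/MpJ. The 3 strains did not overlap, with AKR/N between the others. MRL/MpJ differed from C57BL/6 by -0.34 (SE 0.0683, adjusted p = 0.0104), AKR/N from C57BL/6 by -0.20 (adjusted p = 0.094) and MRL/MpJ from AKR/N by -0.14 (adjusted p = 0.304). A dimmer probe set of Psme3 went the other way, at 145 and 165 units in C57BL/6 and 184 and 221.5 in MRL/MpJ (0.35, adjusted p = 0.0973). Averaged over its tested and untested probe sets, Psme3 differed by -0.17 (adjusted p = 0.383). Leaving out either MRL/MpJ array raised the adjusted p to 0.0565 and 0.066. Psme4, the PA200 activator, was at 2636 and 2488 units in C57BL/6, 2538 and 2757 in AKR/N and 2581 and 2619 in MRL/MpJ, and differed by -0.02 to 0.05. Psme1, a PA28 subunit induced by interferon, was at 117.5 and 148.5 units in C57BL/6 and 165 and 163.5 in MRL/MpJ (0.28, adjusted p = 0.204).

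Of 23 tested genes that assemble, regulate or feed the proteasome, 3 were higher and 2 lower in MRL/MpJ than in C57BL/6 (21.7%, median 0.10). In AKR/N against C57BL/6 2 were higher and 1 lower (13%), and in MRL/MpJ against AKR/N 3 were lower (13%). The shares over all probe sets were 10.0%, 9.97% and 6.91%, and those over probe sets at least as bright as Psme1 were 18.0%, 17.3% and 14.2%. A difference from the proteasome genes was not tested. Ecpas, the adaptor that holds core and cap together, was at 152 and 147 units in C57BL/6, 251 and 289 in AKR/N and 252 and 272 in MRL/MpJ (0.75 and 0.79 against C57BL/6, adjusted p = 0.00139 and 0.000956). Rad23b, a shuttle that brings ubiquitinated proteins to the cap, fell by 0.47 in MRL/MpJ (adjusted p = 0.00137) and by 0.29 in AKR/N (adjusted p = 0.0214). Psmg2, a chaperone for alpha ring assembly, was at 572 and 582 units in C57BL/6, 575 and 549 in AKR/N and 448 and 429 in MRL/MpJ (-0.38 and -0.35, adjusted p = 0.0106 and 0.0239). Ngly1, which strips sugars from proteins, was higher in MRL/MpJ than in C57BL/6 (0.23, adjusted p = 0.029). The shuttle Ubqln2 was higher in AKR/N (0.47, adjusted p = 0.00973), and Akirin2, which takes proteasomes into the nucleus, and Ddi1 were lower in MRL/MpJ than in AKR/N (-0.28 and -0.40).

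Of 25 tested genes of ubiquitin and its ligation, 1 was lower in MRL/MpJ than in C57BL/6 (4%), 4 were higher and 1 lower in AKR/N than in C57BL/6 (20%), and 2 were higher and 2 lower in MRL/MpJ than in AKR/N (16%). The same shares were 10.0%, 9.97% and 6.91% over all probe sets and 18.0%, 17.3% and 14.2% over the bright ones. The 4% was below both, while the 20% and 16% were above both but near those of the bright probe sets. A difference of the ubiquitin genes from either background was not tested. Ube2n, a conjugating enzyme for chains linked through lysine, was at 1359 and 1353 units in C57BL/6, 1263 and 1109.6 in AKR/N and 804 and 752 in MRL/MpJ (-0.79 and -0.60, adjusted p = 0.000123 and 0.00132). Ube2c, which serves the ligase that ends mitosis and meiosis, was at 280 and 285 units in C57BL/6, 389 and 379 in AKR/N and 232 and 231 in MRL/MpJ (0.42 in AKR/N against C57BL/6 and -0.69 in MRL/MpJ against AKR/N). Ube2j1 and Ube2r2 were higher in AKR/N than in C57BL/6 (0.32 and 0.49). The ligase Ube3a was lower in AKR/N than in C57BL/6 (-0.48), and higher in MRL/MpJ than in AKR/N (0.52).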

How the data were processed

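The authors deposited linear intensity values per probe set; the program that made them is not given in the sources used here. From the values, each array has a mean of 125.001 after trimming 2% at each end. Per the labels' protocols, RNA was extracted with Trizol and labelled with biotin after one-cycle cDNA synthesis. Samples were grouped by the strain in their titles. With 2 mice and 2 arrays per strain, p-values reflect the spread between mice as well as between arrays. Arrays of a strain correlated at 0.980 to 0.985 over tested probe sets, which are not independent, and different strains at 0.960 to 0.974.

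Of 45101 probe sets, 64 controls were left out, and 29692 were tested on log2(intensity + 16), which understates changes of dim genes. limma 3.58.1 (R 4.3.3) estimated a mean per strain over the 6 arrays, with a variance trend, 3 residual and 7.58 prior degrees of freedom; the number of arrays limits the precision. The procedure was tested on simulated data. All 42 symbols matched RefSeq. Intervals are unadjusted. The genes and gene lists were chosen with earlier results of these data known. Every proteasome gene could be named, and up to 4 called genes of each other list. The 17 alternatives changed scaling, filter, pseudocount, variance trend, arrays, replicate block and probe set per gene.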

Additional observations from a re-analysis of the deposited data

How the results depend on the processing

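Among the alternatives, Psma8 kept its direction in MRL/MpJ and its call against C57BL/6 in 17 of 17 (0.67 to 0.86) and against AKR/N in 16 of 17 (0.68 to 0.73). In the order MRL/MpJ against C57BL/6, AKR/N against C57BL/6 and MRL/MpJ against AKR/N, the numbers of proteasome genes called were 1, 0 and 0 without the variance trend (1212, 1138 and 421 probe sets in all), and without the filter 0 in the second and 1 in the third (1327 probe sets in the third). With only the arrays compared they were 1 in the second and 5 in the third, with the 60th percentile filter 5 in the first, and as means of a gene's probe sets 1 in the second. Leaving out 1 array gave 1 to 4, 0 to 3 and 1 to 5 (1483 to 2545, 1290 to 2607 and 694 to 2191 probe sets). As reported, limma gave an unadjusted p under 0.05 to 12, 9 and 9 of 39 genes. The replicate block gave 5, 4 and 4 calls (3510, 3492 and 2549 probe sets in all). The differences between replicates 1 and 2 correlated at 0.0425 to 0.0493 across strains. Whether arrays of the same replicate number were handled together was not tested. Median centring moved the medians of the general genes to 0.0840 and 0.0505 in the first and second, and the lower share of all calls from 49.4% to 39.4% and from 49.0% to 39.7%; leaving out 1 array gave -0.00323 to 0.0720, -0.0192 to 0.0377 and 0.0215 to 0.0547. Psmd11 in AKR/N turned to 0.17 without s or x probe sets, which is a change of probe set, and Psmd6 to -1.82 and -1.90 in MRL/MpJ against C57BL/6 and AKR/N as a mean of probe sets. The cause of the other shifts was not tested. Signal near the 40th percentile limits what can be said of Psmb8, Psmb9 and Psmb11.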
